A study of Homo sapiens with 6 samples.

Results

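The clustered protocadherins are a family of cell-surface adhesion proteins encoded side by side on the long arm of chromosome 5. Their transcripts were followed in the parental line MDA-MB-231 (an established line from a human triple-negative breast cancer) and in MDA-MB-231GlnIND, a derived population that grows without glutamine. Members were taken by gene symbol, as every row whose name begins with PCDHA, PCDHB, PCDHGA, PCDHGB or PCDHGC, which gave 57 of the 28265 gene rows. Of these, 15 belonged to the alpha cluster, 19 to the beta cluster (16 genes and 3 pseudogenes) and 23 to the gamma cluster (22 genes and 1 pseudogene). The family itself was selected on measured values, the differences in CPM of these genes between the 3 GlnIND and the 3 parental libraries. Differences of members between GlnIND and parental cells are therefore given as a description, and no test of them is read as support.

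Glutamine-replete RPMI with 10% fetal bovine serum was the medium of the parental cells. The GlnIND population was kept for more than 6 weeks in glutamine-free RPMI with 10% dialysed fetal bovine serum. Effects of the population, of glutamine and of the serum therefore cannot be told apart. Each group had 3 polyA RNA libraries. The labels do not say whether these came from separate cultures, nor whether GlnIND is a clone or a pool, so any p-value covers no more than the spread among these libraries, which may be technical.

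Clustered protocadherins are single-pass membrane proteins of the cadherin superfamily whose ectodomains bind the same isoform on a facing cell. They are best known in neurons, where each cell uses its own small set of isoforms and so tells its own branches from those of other cells. In the alpha and gamma clusters each variable exon has its own promoter and codes for the ectodomain, the membrane span and part of the cytoplasmic tail. That exon is spliced to a set of constant exons shared by the whole cluster, which code for the rest of the tail. Beta genes have a single coding exon and no constant exons. The last variable exons of the alpha and gamma clusters, PCDHAC1, PCDHAC2, PCDHGC3, PCDHGC4 and PCDHGC5, are the C-type isoforms, which are regulated apart from the rest. Most variable promoters carry a short conserved element with the letters CGCT at its core. Binding of CTCF and cohesin near the promoters and DNA methylation are known to take part in the choice of isoform.

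Promoters from RefSeq (build GRCh38.p14, 250 bases before to 50 after the start) were found for 47 of the 57 members. They are shown because the members' differences varied from promoter to promoter within one stretch of chromosome 5. The sequence of 8 bases found in most promoters of each cluster, searched on both strands, is in capitals with 20 bases on either side. It was GTGGCGCT in 13 of 14 beta promoters, ATGTCGCT in 9 of 13 alpha promoters and GCCGCTGT in 11 of 20 gamma promoters. Another sequence of 8 bases was equally frequent in the alpha and in the beta cluster, and among tied sequences one holding CGCT was preferred. Of all 35116 promoters in the table, 1.15%, 0.234% and 1.63% hold these letters. None of the 3 occurred in a promoter of the other clusters. All of them contain CGCT, which in alpha and beta may follow from the rule for ties. The letters CGCT alone are held by 12 of 13 alpha, all 14 beta and all 20 gamma promoters, against 70.0% of all promoters. The match began 1 to 83 bases upstream of the start in beta (median 65), 42 to 85 in alpha (median 52) and 42 to 97 in gamma (median 67).

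From the beta cluster, the promoter windows of the gene at a similar level in both populations (PCDHB2), of those that differed the most (PCDHB4, PCDHB7) and of those at the highest GlnIND levels (PCDHB13, PCDHB16) were as follows, all on the plus strand.
PCDHB2, chr5:141094536-141094583: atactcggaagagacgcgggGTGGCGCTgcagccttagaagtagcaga
PCDHB4, chr5:141121715-141121762: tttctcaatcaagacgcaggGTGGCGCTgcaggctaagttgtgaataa
PCDHB7, chr5:141172558-141172605: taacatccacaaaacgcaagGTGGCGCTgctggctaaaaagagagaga
PCDHB16, chr5:141182302-141182349: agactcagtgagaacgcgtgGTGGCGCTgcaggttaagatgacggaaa
PCDHB13, chr5:141213857-141213904: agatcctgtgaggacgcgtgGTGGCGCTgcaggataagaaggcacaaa

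From the alpha cluster, PCDHA2 and PCDHA5 are shown because they had no counts in any library, and PCDHA10 and PCDHA12 because they were counted in all GlnIND libraries.
PCDHA2, chr5:140794773-140794820: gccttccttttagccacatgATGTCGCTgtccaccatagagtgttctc
PCDHA5, chr5:140821534-140821581: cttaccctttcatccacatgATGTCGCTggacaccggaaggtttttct
PCDHA10, chr5:140855833-140855880: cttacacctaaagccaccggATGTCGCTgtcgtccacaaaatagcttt
PCDHA12, chr5:140875236-140875283: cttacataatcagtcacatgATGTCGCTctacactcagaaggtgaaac

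From the gamma cluster, PCDHGA1 lay higher in GlnIND cells, PCDHGB1 and PCDHGC3 were among the 3 gamma members with the most counts, and PCDHGC4 was counted in GlnIND libraries only.
PCDHGA1, chr5:141330397-141330444: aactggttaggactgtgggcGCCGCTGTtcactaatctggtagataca
PCDHGB1, chr5:141350019-141350066: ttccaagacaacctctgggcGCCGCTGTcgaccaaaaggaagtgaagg
PCDHGC3, chr5:141475874-141475921: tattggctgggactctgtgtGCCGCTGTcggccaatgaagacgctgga
PCDHGC4, chr5:141484946-141484993: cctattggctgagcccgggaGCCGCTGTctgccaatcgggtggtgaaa
The capitals occurred both in members with and without counts and in members that did and did not differ. The promoter of PCDHB1, which had no counts, was the only beta promoter in the table without its cluster's letters. The promoters of PCDHAC1, PCDHAC2, PCDHA9 and PCDHA11 lacked those of the alpha cluster. Those of the gamma cluster were lacking in PCDHGA2, PCDHGA3, PCDHGA4, PCDHGB2, PCDHGA5, PCDHGB3, PCDHGA6, PCDHGB7 and PCDHGA11. All of these gamma members had counts, and PCDHGB2 had the highest mean level of its cluster. Such a match is a description of letters and does not show binding.

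Members were weakly expressed. They took 900 to 1163 counts per parental library and 2756 to 3383 per GlnIND library, out of library totals of 18256219 to 24594248. Levels are given in CPM, read counts scaled to library size with TMM factors. Low counts of members were even in 80% of 135 values, against 62.8% over all genes at such counts. An excess of even counts can arise when each end of a pair counts separately, which is not stated in the sources used here. The detection floor was therefore set at 6 counts, or 3 read pairs, which is 0.230 to 0.343 CPM in one library. The line's markers were checked too. VIM, CD44 and EGFR were high in both groups (356 to 6077 CPM as group means), and the group means of ESR1, PGR and CDH1 were below 0.22 CPM. ERBB2 was not absent, with group means of 36.1 CPM (parental) and 63.7 CPM (GlnIND), and EPCAM was at 14.3 and 2.22 CPM.

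The 3 clusters differed by unequal amounts between the populations. The summed alpha level was 0.595, 0.400 and 0.416 CPM in the parental libraries and 6.23, 6.45 and 5.03 CPM in the GlnIND libraries, a ratio of means of 12.5 resting on 27 parental counts. The summed beta level was 28.6, 26.0 and 24.1 CPM in parental and 82.9, 90.6 and 87.3 CPM in GlnIND libraries, a ratio of 3.31. The summed gamma level was 28.5, 25.1 and 25.1 CPM in parental and 34.4, 34.96 and 37.5 CPM in GlnIND libraries, a ratio of 1.36. In each cluster all GlnIND libraries lay above all parental libraries. Summed over the family the parental level was 52.9 ± 4.21 CPM and the GlnIND level 128 ± 4.39 CPM (SD, n = 3 each). A higher level in bulk RNA may come from more expressing cells or from more RNA per cell, which cannot be told apart here.

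**Figure D1:**
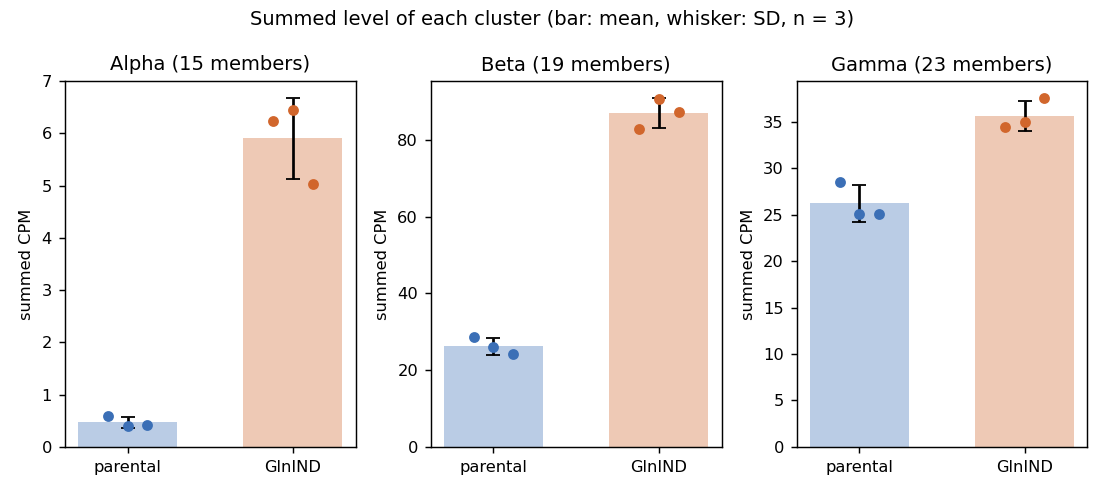
Summed TMM-scaled CPM of the alpha, beta and gamma members (vertical axes, linear, each from 0) in parental and GlnIND libraries. Bars are means, whiskers SD and points the 3 libraries of each group; in every cluster the GlnIND points lie above the parental points, and the ratio of means is 12.5 in alpha, 3.31 in beta and 1.36 in gamma.

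The make-up of the family differed too. In parental cells the beta cluster held 49.6% ± 0.985 and the gamma cluster 49.6% ± 0.960 of the summed level, with 0.882% ± 0.133 left for alpha (SD, n = 3). In GlnIND cells beta held 67.7% ± 0.854, gamma 27.7% ± 1.21 and alpha 4.60% ± 0.635 (SD, n = 3). The number of members with a group mean of at least 1 CPM was 13 in parental and 26 in GlnIND cells. By cluster it was 0 and 2 in alpha, 9 and 15 in beta, and 4 and 9 in gamma.

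Only 33 of the 57 members passed the filter on low counts, and 17 of these passed it through the GlnIND group alone, which favours a higher value there. By the quasi-likelihood test of edgeR, adjusted after Benjamini-Hochberg over all 13949 tested genes, 24 of the 33 were called higher in GlnIND cells, 0 lower and 9 neither way. By the same rule 28.4% of all tested genes were called higher and 27.9% lower, or 56.3% in all. The 24 untested members include 5 with no counts anywhere, PCDHA2, PCDHA5, PCDHA9, PCDHA11 and PCDHB1. Since the contrast chose the family, nothing is read from these counts.

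**Figure D2:**
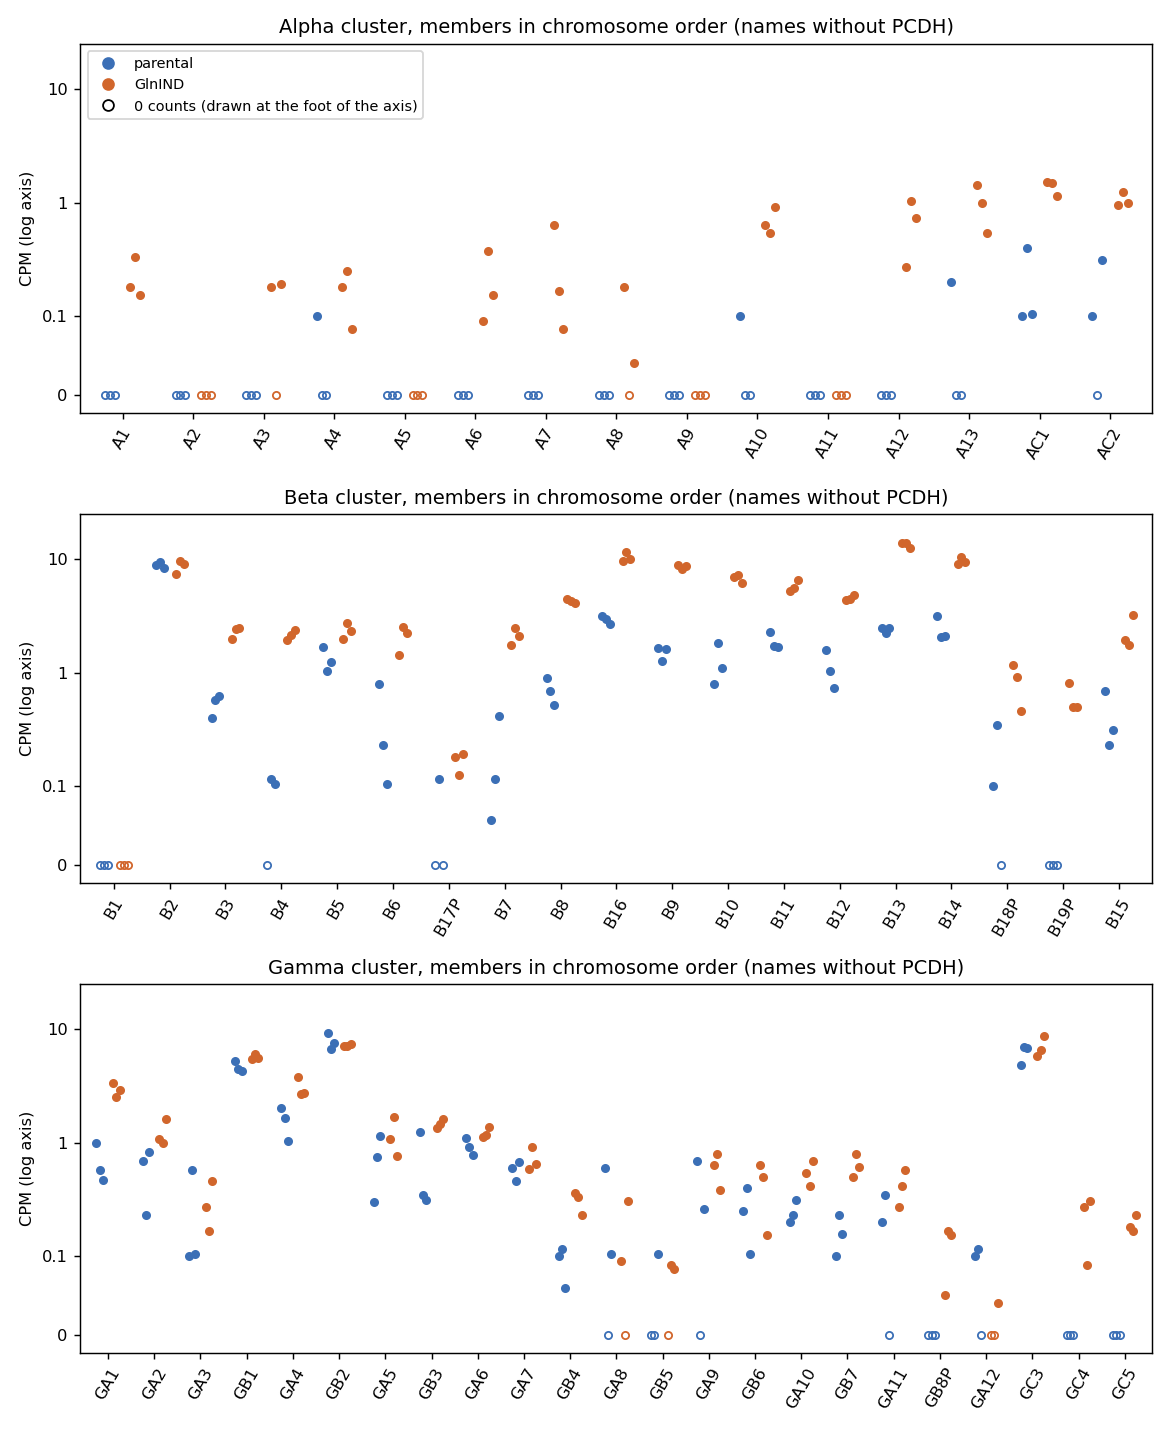
TMM-scaled CPM (log axis) of each of the 57 members in the 6 libraries, in chromosome order within each cluster; open circles at the foot of the axis are libraries with 0 counts. Most beta members lie higher in all GlnIND libraries, PCDHB2, PCDHGB2 and PCDHGC3 overlap between groups, and PCDHA2, PCDHA5, PCDHA9, PCDHA11 and PCDHB1 are at 0 throughout.

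In the beta cluster, whose proteins lack the shared tail, nearly every member but the first expressed one lay higher in GlnIND cells. PCDHB2 had 8.88, 9.50 and 8.42 CPM in parental libraries and 7.40, 9.57 and 9.06 CPM in GlnIND libraries. The groups overlapped, and its log2 fold change (GlnIND over parental) was -0.04 (SE 0.139). Without PCDHB2 the summed beta level went from 17.3 ± 2.11 to 78.3 ± 2.78 CPM (SD, n = 3), a ratio of 4.52. PCDHB2 thus made up 34.2% ± 2.78 of the beta level in parental cells and 9.95% ± 0.896 in GlnIND cells.

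The 3 other beta members with the highest levels lie further along the cluster. PCDHB13 had 2.48, 2.23 and 2.50 CPM in parental and 13.8, 13.9 and 12.5 CPM in GlnIND libraries, a log2 fold change of 2.47 (SE 0.141). PCDHB16 had 3.13, 2.98 and 2.70 CPM in parental and 9.69, 11.5 and 10.1 CPM in GlnIND libraries, a log2 fold change of 1.83 (SE 0.149). PCDHB14 had 3.17, 2.06 and 2.08 CPM in parental and 9.10, 10.45 and 9.48 CPM in GlnIND libraries, a log2 fold change of 1.98 (SE 0.189). In all 3 the lowest GlnIND library was above the highest parental one. PCDHB13 took 9.20% ± 0.994 of the beta level in parental and 15.4% ± 1.16 in GlnIND cells (SD, n = 3) and was then the largest beta member by counts. PCDHB14 and PCDHB16 held 9.21% and 11.2% of it in parental cells, and 11.1% and 11.97% in GlnIND cells.

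**Figure D3:**
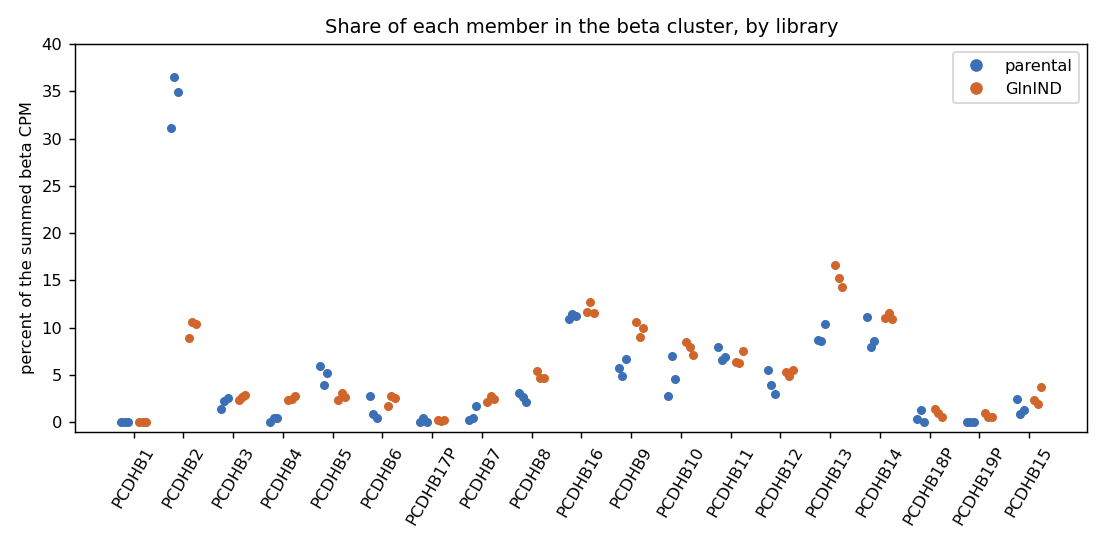
Percent of the summed beta CPM (vertical axis) taken by each of the 19 beta members in chromosome order, 1 point per library. PCDHB2 lies between 31.1% and 36.5% in parental libraries and between 8.92% and 10.6% in GlnIND libraries, and PCDHB13 between 8.57% and 10.3% and between 14.3% and 16.6%.

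Within the beta cluster, and leaving aside PCDHB19P, the highest log2 fold changes were those of PCDHB4, PCDHB7 and PCDHB8. PCDHB4 had 0, 2 and 2 counts in parental libraries and 43, 52 and 62 in GlnIND libraries. Per library size its counts were 30.8 times as high in GlnIND cells, with an exact 95% interval of 8.26 to 259 that covers counting error only. PCDHB7 had 0.0496, 0.114 and 0.416 CPM in parental and 1.75, 2.46 and 2.11 CPM in GlnIND libraries, a log2 fold change of 3.41 (SE 0.492). PCDHB8 had 0.893, 0.686 and 0.520 CPM in parental and 4.44, 4.25 and 4.07 CPM in GlnIND libraries, a log2 fold change of 2.59 (SE 0.243). None of these members overlapped between the groups. Parental replicate 3 held most of the parental PCDHB7 counts, and without it the log2 fold change was 4.61. For PCDHB4 it was 4.83 (SE 0.503) over all libraries and 4.23 without parental replicate 1.

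Small differences were seen next to large ones. PCDHB5, which lies between PCDHB4 and PCDHB6, had 1.69, 1.03 and 1.25 CPM in parental and 1.97, 2.75 and 2.30 CPM in GlnIND libraries, a log2 fold change of 0.82 (SE 0.265). PCDHB11 had 2.28, 1.72 and 1.66 CPM in parental and 5.25, 5.62 and 6.56 CPM in GlnIND libraries, a log2 fold change of 1.62 (SE 0.198). The groups overlapped in neither, but the call of PCDHB5 was lost when parental replicate 2 or 3 or GlnIND replicate 2 or 3 was left out.

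The remaining 8 tested beta members were PCDHB3, PCDHB6, PCDHB9, PCDHB10, PCDHB12, PCDHB15 and the pseudogenes PCDHB18P and PCDHB19P. Apart from PCDHB19P their log2 fold changes lay between 2.01 in PCDHB12 and 2.52 in PCDHB18P, and each had a higher level in all GlnIND libraries. Single libraries moved 3 of these values. PCDHB6 was at 2.40 and at 3.60 without parental replicate 1, and PCDHB15 at 2.45 and at 3.05 without the same library. PCDHB18P was at 3.89 without parental replicate 2 and 1.92 without parental replicate 3, and its call was lost without GlnIND replicate 1. PCDHB19P had 0 counts in the parental group and 18, 12 and 13 in GlnIND libraries. With the parental group set at 6 counts in total, PCDHB19P was at least 5.63-fold higher in GlnIND cells. That setting is below the floor of 6 counts in each library. Of the 2 untested members, PCDHB1 was at 0 and PCDHB17P had 2 counts in the parental and 12 in the GlnIND group. In all, 16 of the 17 tested beta members were called higher, and the same 16 did not overlap between groups, with the GlnIND libraries above. Of the 17, 7 passed the filter through the GlnIND group alone, and 28.4% of all tested genes were called higher. Across all tested genes 33.7% had every GlnIND library above every parental one and 31.3% had every one below. PCDHB19P, and PCDHA12 below, were singled out after their values were seen.

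In the alpha cluster, GlnIND counts were concentrated in the members next to the constant exons. PCDHAC1 had 0.0992, 0.400 and 0.104 CPM in parental and 1.53, 1.498 and 1.15 CPM in GlnIND libraries, a log2 fold change of 2.80 (SE 0.477). PCDHAC2 had 0.0992, 0 and 0.312 CPM in parental and 0.942, 1.25 and 0.998 CPM in GlnIND libraries, a log2 fold change of 2.87 (SE 0.599). These C-type isoforms did not overlap between groups, although their parental levels were at or near the floor. Without parental replicate 2 the log2 fold change of PCDHAC1 was 3.68, and without parental replicate 3 that of PCDHAC2 was 4.17.

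Of the other alpha members, PCDHA13 had 4, 0 and 0 counts in parental and 32, 24 and 14 in GlnIND libraries, a ratio per library size of 13.8 (exact 95% interval 3.53 to 118). PCDHA10 had 2, 0 and 0 counts in parental and 14, 13 and 24 in GlnIND libraries, a ratio of 20.04 (exact 95% interval 3.29 to 822). The parental counts of both lay in parental replicate 1 alone. Their fitted log2 fold changes, 3.70 for PCDHA13 and 4.11 for PCDHA10, were 7.42 and 6.95 without that library, values that depend on the prior count because the parental group is then at 0. PCDHA12 had 0 parental counts and 6, 25 and 19 in GlnIND libraries. With the parental group again set at 6 counts in total, PCDHA12 was at least 6.55-fold higher in GlnIND cells. It was not tested, since its counts did not pass the filter. The 4 alpha members tested were PCDHA10, PCDHA13, PCDHAC1 and PCDHAC2, all through their GlnIND counts alone, which favours a higher value there. All 4 were called higher, against 28.4% of all tested genes called higher and 27.9% lower. Nothing is read from this count. Of the 11 untested alpha members, 7 had counts in some library. All 7 had the higher mean in GlnIND cells, and none had more than 25 counts in a GlnIND library or 2 in a parental one.

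The last 6 alpha members in chromosome order, PCDHA10 to PCDHA13 with PCDHAC1 and PCDHAC2, held 77.0%, 82.6% and 86.3% of the alpha level in the GlnIND libraries. A cut at 6 members had not been planned. PCDHA11, in the midst of them, was at 0 in all 6 libraries. PCDHAC1 alone held 23.5% ± 0.823 and PCDHAC2 18.1% ± 2.61 (SD, n = 3). In the parental libraries the last 6 members held 83.3%, 100% and 100%. The parental alpha counts, 27 in all, are too few to compare such shares.

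The gamma cluster was carried by 3 members that overlapped or nearly overlapped between the populations. PCDHGB2 had 9.18, 6.69 and 7.59 CPM in parental and 7.09, 7.08 and 7.41 CPM in GlnIND libraries, a log2 fold change of -0.12 (SE 0.149). PCDHGC3, a C-type isoform, had 4.86, 6.98 and 6.81 CPM in parental and 5.79, 6.58 and 8.64 CPM in GlnIND libraries, a log2 fold change of 0.18 (SE 0.199). PCDHGB1 had 5.21, 4.46 and 4.26 CPM in parental and 5.47, 5.99 and 5.57 CPM in GlnIND libraries, a log2 fold change of 0.29 (SE 0.152). The first pair overlapped between groups, and PCDHGB1 did not. Together these members held 67.5%, 72.4% and 74.3% of the gamma level in parental libraries and 53.3%, 56.2% and 57.6% in GlnIND libraries.

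Apart from PCDHGB1, the gamma members that lay higher in GlnIND cells were less abundant. PCDHGA1, the first of the cluster, had 0.992, 0.572 and 0.468 CPM in parental and 3.36, 2.50 and 2.92 CPM in GlnIND libraries, a log2 fold change of 2.09 (SE 0.306). PCDHGA4 had 2.03, 1.66 and 1.04 CPM in parental and 3.77, 2.71 and 2.73 CPM in GlnIND libraries, a log2 fold change of 0.95 (SE 0.279). PCDHGB3 had 1.24, 0.343 and 0.312 CPM in parental and 1.35, 1.46 and 1.61 CPM in GlnIND libraries, a log2 fold change of 1.19 (SE 0.460). Parental replicate 1 stood close to the GlnIND libraries in PCDHGB3, whose log2 fold change was 2.14 without it.

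PCDHGA2 had 0.694, 0.229 and 0.832 CPM in parental and 1.08, 0.999 and 1.61 CPM in GlnIND libraries, a log2 fold change of 1.05 (SE 0.424) that was not called. It was called in 4 of 15 alternatives, without parental replicate 1, without parental replicate 3, with library totals and with upper-quartile factors. PCDHGA1, PCDHGA4, PCDHGB3 and PCDHGB7 were the 4 gamma members called higher, of 12 tested, and 0 were called lower. Over all tested genes 28.4% were called higher and 27.9% lower. Of the 12 tested gamma members, 6 passed the filter through the GlnIND group alone. Among the 4 called, PCDHGA4 lost its call without parental replicate 3 and without GlnIND replicate 1. PCDHGB3 kept its call in 6 of 15 alternatives and lost it without parental replicate 2 or 3 and without any 1 of the GlnIND libraries. PCDHGB7, at 0.161 ± 0.0650 CPM (parental) and 0.633 ± 0.150 CPM (GlnIND; SD, n = 3), had a log2 fold change of 1.96 (SE 0.488). The others tested, PCDHGA5, PCDHGA6, PCDHGA7 and PCDHGA9, had log2 fold changes between 0.31 and 0.84 and were not called. PCDHGA9, the highest of them, was at 2.08 and called without parental replicate 1.

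By subfamily, the summed level of the 12 gamma A members was 6.38 ± 1.05 CPM (parental) and 12.3 ± 0.542 CPM (GlnIND), a ratio of 1.93. The 8 gamma B members summed to 13.6 ± 2.12 and 15.9 ± 0.489 CPM, a ratio of 1.16, and the 3 gamma C members to 6.22 ± 1.18 and 7.41 ± 1.56 CPM, a ratio of 1.19 (SD, n = 3 each). Gamma A libraries did not overlap between the groups. The C-type isoforms PCDHGC4 and PCDHGC5 had 0 parental counts. In GlnIND libraries PCDHGC4 had 6, 2 and 8 counts and PCDHGC5 had 4, 4 and 6. Most of these are at or under the floor of 6 counts in one library, so no fold is given. Of the 11 untested gamma members, 9 had the higher mean in GlnIND cells and 2, PCDHGA8 and PCDHGA12, the lower one, with at most 18 counts in any library.

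**Figure D4:**
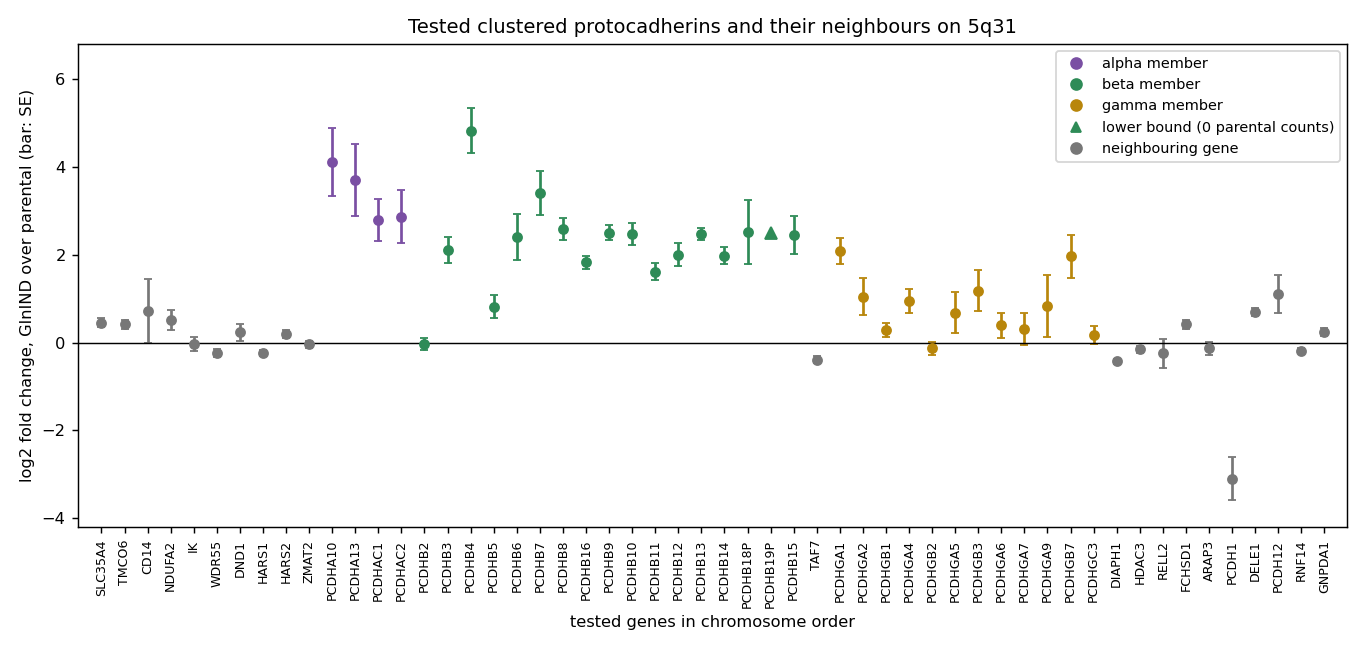
Log2 fold change, GlnIND over parental, with its SE (vertical axis) for the 33 tested members, the nearest 10 tested listed neighbours on either side and TAF7, in chromosome order. The triangle marks the lower bound of PCDHB19P, with its 0 parental counts set at 6 in total. PCDHB2 at -0.04 and PCDHGB2 at -0.12 stand beside members of their clusters above 1, and the neighbours lie on both sides of 0.

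The members share sequence, which limits how reads can be assigned. Windows of 75 bases over GENCODE 29 transcripts were compared with all other genes in the deposited counts. Of an alpha member 34.04% to 52.89% (median 44.6%) occurred in no other such gene, since 2792 windows were common to all 15. For gamma the share was 43.29% to 100% (median 51.91%), with 2107 windows common to the 22 genes. The 100% was that of the pseudogene PCDHGB8P, and the highest gamma gene was PCDHGA4 at 55.08%. Beta members were more distinct, at 65.38% to 100% (median 91.43%). The lowest was PCDHB8, which shares 670 windows with PCDHB13. PCDHA2, PCDHA5, PCDHA9 and PCDHA11 had 0 counts beside PCDHAC1 with 30 to 36 in the GlnIND libraries, so reads in the shared alpha exons had not been given to every member. Whether they were counted at all is not given in the sources used here, and the alpha and gamma sums may leave them out.

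Levels of different members were set side by side per kilobase of sequence unique to each. This treats reads in shared sequence as uncounted and may overstate members with little of their own. On this scale parental cells had PCDHGB2 at 3.59, PCDHB2 at 2.60, PCDHGC3 at 2.45 and PCDHGB1 at 2.14 CPM per kilobase, and the next was PCDHB16 at 0.651. GlnIND cells had a wider group at the top, with PCDHGB2 at 3.30, PCDHB13 at 3.29, PCDHB10 at 2.98, PCDHGC3 at 2.76, PCDHGB1 at 2.62, PCDHB2 at 2.53 and PCDHB8 at 2.44 CPM per kilobase. Close behind in GlnIND cells were PCDHB16 and PCDHB9 at 2.31 and PCDHB14 at 2.20. PCDHAC1, the highest alpha member, was at 0.572 and PCDHAC2 at 0.344.

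Genes on either side of the clusters were listed to set beside the members. Of 29 tested neighbours among 32 listed, 8 rose, 8 fell and 13 did not pass the test, shares near the 28.4% higher and 27.9% lower over all tested genes, with a median log2 fold change of 0.04 against 0.03 over all tested genes. TAF7, the general transcription factor gene between the beta and gamma clusters, fell by 0.39 in log2 units (SE 0.073; adjusted p = 0.00149 by edgeR). PCDH1, a non-clustered protocadherin beyond the gamma cluster, fell by 3.10 (SE 0.484, edgeR adjusted p = 0.000467), from 1.95 ± 0.492 to 0.228 ± 0.194 CPM (SD, n = 3), and by 3.97 without GlnIND replicate 1. APBB3 rose by 1.74 (SE 0.263, edgeR adjusted p = 0.000377), DELE1 rose by 0.70 (SE 0.085) and HBEGF, a ligand of the EGF receptor, fell by 0.78 (SE 0.072). The median over the 40 nearest tested genes outside the family, 20 on either side, was 0.00.

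Genes that take part in the architecture and silencing of the clusters were compared next, from a list of 21 that were all tested. Of these 3 rose, 10 fell and 8 did not pass, with a median log2 fold change of -0.27; over all tested genes 56.3% were called, 28.4% higher and 27.9% lower. STAG2, a subunit of cohesin, fell by 1.32 (SE 0.075, edgeR adjusted p = 9.41e-07), and DNMT3A, a de novo DNA methyltransferase, fell by 0.97 (SE 0.129, edgeR adjusted p = 0.000175). PDS5B, a regulator of cohesin, fell by 0.58 (SE 0.127, edgeR adjusted p = 0.00316), whereas MAU2, part of the cohesin loader, rose by 0.86 (SE 0.113, edgeR adjusted p = 0.000157). The 40 tested genes nearest to STAG2 on the X chromosome had a median of -1.01, those nearest to PDS5B one of -0.41 and those nearest to MAU2 one of 0.41, against 0.18 around DNMT3A. The part of these neighbourhoods in the results was not tested. CTCF itself had a log2 fold change of -0.13 and did not pass.

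A further list held partners for release from the membrane and for signalling. Of these 20, all tested, 3 rose, 7 fell and 10 did not pass, near the 56.3% called over all tested genes, with a median log2 fold change of -0.01. CYFIP2, a subunit of the WAVE regulatory complex that controls actin, rose by 2.85 (SE 0.113, edgeR adjusted p = 1.14e-07), and NCKAP1, another subunit, fell by 0.55 (SE 0.060, edgeR adjusted p = 5.35e-05). PRKCA, a protein kinase C, rose by 0.60 (SE 0.057, edgeR adjusted p = 2.24e-05), and PTK2, the focal adhesion kinase, fell by 0.39 (SE 0.058, edgeR adjusted p = 0.000364). The 40 tested genes nearest to NCKAP1 had a median of -0.42 and those nearest to PRKCA one of 0.37. Around PTK2 the median was 0.31, opposite in sign to PTK2 itself, and around CYFIP2 it was 0.16. The part of these neighbourhoods in the results was not tested.

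The non-clustered protocadherins, single genes outside the clusters, formed the last list. PCDH1 and PCDH12 among them lie on 5q31 beyond the gamma cluster and were also listed as neighbours above. Of 13 listed and 8 tested, 2 rose, 5 fell and 1 did not pass, against 28.4% higher and 27.9% lower over all tested genes. PCDH10 went from 2.98, 2.86 and 3.43 CPM in parental to 0.0897, 0.333 and 0.230 CPM in GlnIND libraries, a log2 fold change of -3.77 with SE 0.357 (adjusted p = 2.1e-05 by edgeR). PCDH7, the most abundant, went from 45.9, 45.2 and 39.4 CPM to 14.98, 14.02 and 15.3 CPM, a log2 fold change of -1.56 with SE 0.097 (adjusted p = 1.66e-06 by edgeR). PCDH18 rose by 1.36 (SE 0.254, edgeR adjusted p = 0.0013), from 1.03 ± 0.200 to 2.64 ± 0.386 CPM (SD, n = 3). None of these 3 overlapped between groups. The 40 genes nearest to PCDH10 and to PCDH18, both on chromosome 4, had a median of -0.39. Those nearest to PCDH7 had a median of -0.18 and those nearest to PCDH1 one of -0.03.

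**Figure D5:**
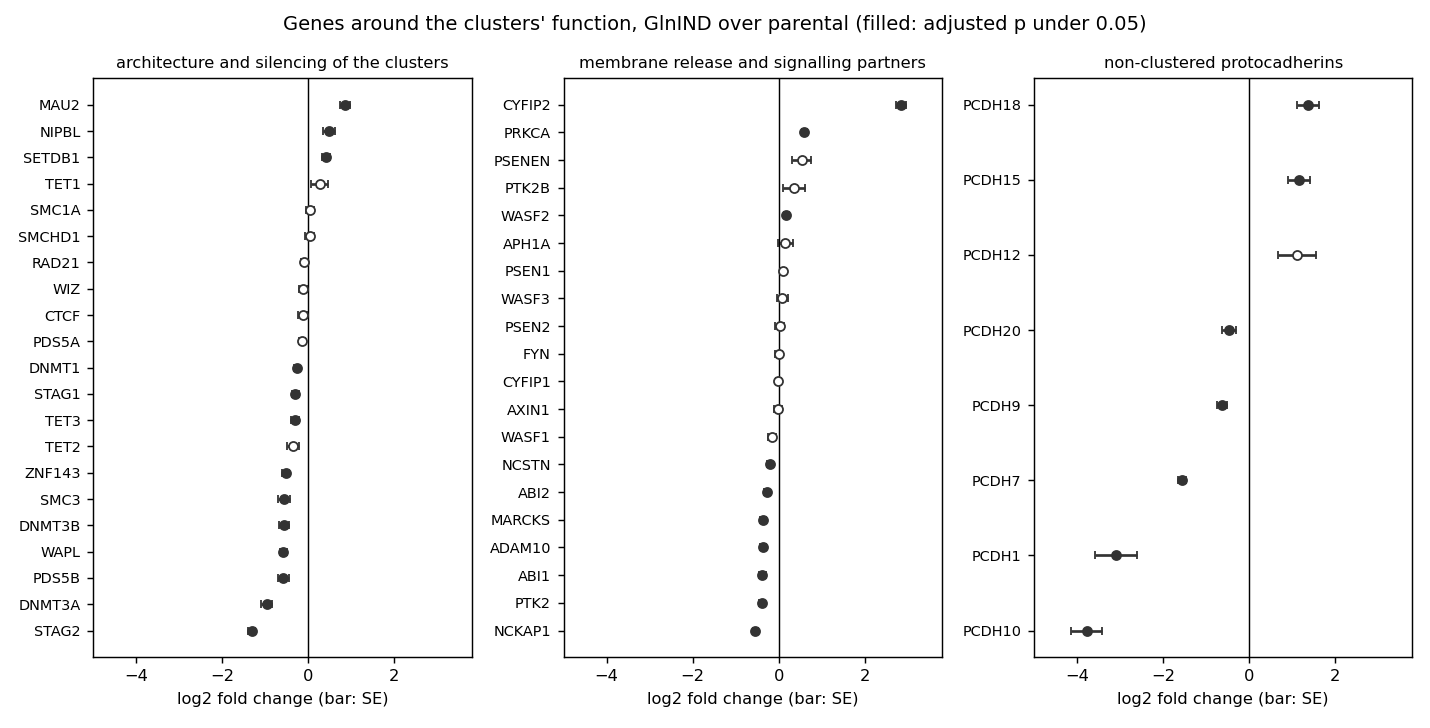
Log2 fold change, GlnIND over parental, with its SE (horizontal axis) for tested genes of cluster architecture and silencing, of membrane release and signalling, and of the non-clustered protocadherins. Filled points passed edgeR's adjusted p of 0.05; genes lie on both sides of 0 in each list, from STAG2 at -1.32 to MAU2 at 0.86, from NCKAP1 at -0.55 to CYFIP2 at 2.85, and from PCDH10 at -3.77 to PCDH18 at 1.36.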

How the data were processed

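PolyA RNA of 3 parental and 3 GlnIND libraries was made with the Kapa mRNA HyperPrep kit, per the labels' protocols. The deposited tables hold raw read counts, 1 row per gene symbol. Tools were STAR, featureCounts, DESeq and FastQC on hg19, per the submitters' processing notes; versions, annotation, strand and multi-mapping settings are not given in the sources used here. Replicate numbers follow the per-library tables, whose replicates 1 and 3 are exchanged in the deposited matrix within each group.

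Counts were tested with edgeR 4.0.16 in R 4.3.3 (glmQLFTest, two-sided, TMM factors, filterByExpr with a minimum count of 10 and minimum total of 15, group as the only term). Adjusted p under 0.05 was called. The procedure was also run on simulated counts, with far fewer changed genes than were called here. The outcome of that run is not given here and backs none of these calls. SE came from the F statistic. Intervals are Clopper-Pearson on halved counts and cover counting error only. Alternatives used DESeq2 1.42.0, limma-voom 3.58.1, other factors and filters, left-out libraries and a replicate block. Named with every library were, per cluster, the 4 highest mean levels and the 3 highest and lowest fold changes at 1 CPM or more, plus the C-type isoforms; per other list, up to 4 called genes of at least 1 CPM with the largest change. TAF7, CTCF and marker genes stand outside that rule. Members and lists were chosen with earlier results of these data known. RefSeq promoters are from build GRCh38.p14, and no coordinates were converted.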

Additional observations from a re-analysis of the deposited data

How the results depend on the processing

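No result changed direction with its call. Alpha members called were 8 with no filter on low counts (11 tested), 1 with a CPM of at least 1 in 3 libraries (1 tested) and 4 in the original setting. Of all tested genes 40.6%, 58.6% and 56.3% were called in these settings. Gamma members called were 2 at an adjusted p under 0.01 against 4 at 0.05. When 1 library was left out they were 2 to 6, with 2 without GlnIND replicate 1 and 6 without parental replicate 1. The share of all tested genes called moved too. It was 41.9% at an adjusted p under 0.01, 47% without GlnIND replicate 1 and 65.2% without parental replicate 1. The summed beta log2 ratio was 1.88 with library totals alone against 1.73, and the summed gamma log2 ratio 0.53 (upper-quartile factors) and 0.60 (library totals) against 0.44. The median of all genes was then 0.12 and 0.18 against 0.03. Signs of PCDHB2 (-0.12 to 0.11), PCDHGB2 (-0.24 to 0.03) and PCDHGC3 (-0.02 to 0.33), none called, varied over the alternatives. Of 473 refits of tested members 447 kept their side of the threshold, 20 lost the call and 6 gained one. PCDHB5 (adjusted p = 0.0556) and PCDHGB3 (adjusted p = 0.0509) lost theirs in edgeR with the replicate block. Deviations from the group mean in same-numbered libraries correlated at -0.086, 0.025 and -0.097. From 3 libraries a group this cannot show whether the numbers stand for more than a label. With the replicate block 4 alpha, 15 beta and 3 gamma members and 42 listed genes were called, against 4, 16, 4 and 45. Of all tested genes 52.4% were called with the block, against 56.3%. Counts at or under 6 in a group set the limit for most alpha members.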
